A study of Mus musculus with 6 samples.

Results

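The genes described here are 48 genes of the neuronal cytoskeleton, the synapse and the secretory granule, with the RNA-binding proteins and transcription factors of young neurons and a pair of neural progenitor genes. They were chosen by function with the differences of the comparison below already known, so their number, direction and medians are a description and not independent support. Of the 48, 46 were measured among 19938 genes. Each was read from an array row with exactly 1 gene symbol, selected on its level: where a gene had several, the brightest on average across all 6 samples. That choice concerned Ina and Stmn3, whose chosen rows averaged 5.56 and 5.27 over the samples and whose other rows averaged 4.49 and 2.60. Vamp2, a synaptic vesicle gene, lay on a row with another gene, and Pcsk2, a prohormone convertase gene, was not used here.

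The study compared cells derived from mouse embryonic stem cells of the W4/129S6 background in which green fluorescent protein (GFP) was knocked into Nkx2-1, a transcription factor gene of the lung, thyroid and ventral forebrain. After 14 days of differentiation the cells were sorted into 3 GFP-positive samples (genotype label Nkx2-1GFP+, called Nkx2-1 high) and 3 GFP-negative samples (Nkx2-1GFP-, called Nkx2-1 low), described as biological replicates. The same reporter line gave both groups, so the knock-in is shared. The labels do not say how many clones were used, whether the targeted allele still makes Nkx2-1 protein, or which factors were added to the cultures. The reporter follows the Nkx2-1 locus and does not by itself separate its endodermal from its forebrain cells.

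A young neuron first builds a neurite. Tubulin and its binding proteins (doublecortin, tau, the stathmins), intermediate filaments, collapsin response mediators and adhesion proteins of the growth cone serve this step, and Hu-family RNA-binding proteins stabilise many of the transcripts. Synaptic vesicle proteins, transmitter enzymes and transporters come with later maturation. Neurons and neuroendocrine cells also store peptides in dense-core granules, with granins and prohormone convertases as cargo. Neural genes are held silent in many non-neural cells by the repressor REST, which binds the RE1 element.

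Values are log2 expression after robust multi-array averaging (RMA), 1 array per sample, with array medians from 4.98 to 5.06. Nkx2-1 itself checked the sort: it stood at 7.62, 7.77 and 7.77 in Nkx2-1 high and at 5.42, 5.23 and 5.34 in Nkx2-1 low. A background level of 4.30 was taken from the 95th percentile of the values of 1210 rows of olfactory and vomeronasal receptors, and 40 of the 46 genes had a group mean above it. A gene "rose" or "fell" when it was higher or lower in the GFP-positive samples at an adjusted p below 0.05 (limma, Benjamini-Hochberg over all 19938 genes). Each log2 difference is the mean of Nkx2-1 high less that of Nkx2-1 low, ± its standard error. Where only 1 group mean lay above background, the fold was taken against the background level and is written "at least". Levels of different genes are not compared, since rows differ in their probes. In sorted bulk samples, fewer cells of a type and less RNA per cell cannot be told apart.

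Some genes of the neurite, among them Ina, Dcx and Crmp1, were lower in the cells sorted as Nkx2-1 high, and most synaptic and granule genes did not pass the test. Of the 46 genes 17 fell and 1 rose. Over all genes, 3.09% were lower and 2.90% higher at the same threshold, and among the 13404 genes with a group mean above background 4.27% were lower. The median log2 difference of the 46 was -0.24, beside -0.01 over all genes. By role, 10 of 19 early neurite genes fell and 2 of 7 RNA-binding and transcription factor genes. So did 1 of 10 synaptic and transmitter genes, 2 of 8 granule and neuroendocrine genes and both progenitor genes. Those 2 of 8 were Rtn1, a gene of the endoplasmic reticulum, and Scg3, which was under background in both groups. Whether these shares differ between roles was not tested. With all samples 617 genes of the whole array fell. Leaving out Nkx2-1 high replicate 1 gave 394 and leaving out replicate 2 of that group gave 284, and leaving out Nkx2-1 low replicate 1, 2 or 3 gave 379, 328 and 398. Among the 46 genes those fits gave 13 to 15, and leaving out Nkx2-1 high replicate 3 gave 18.

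**Figure D1:**
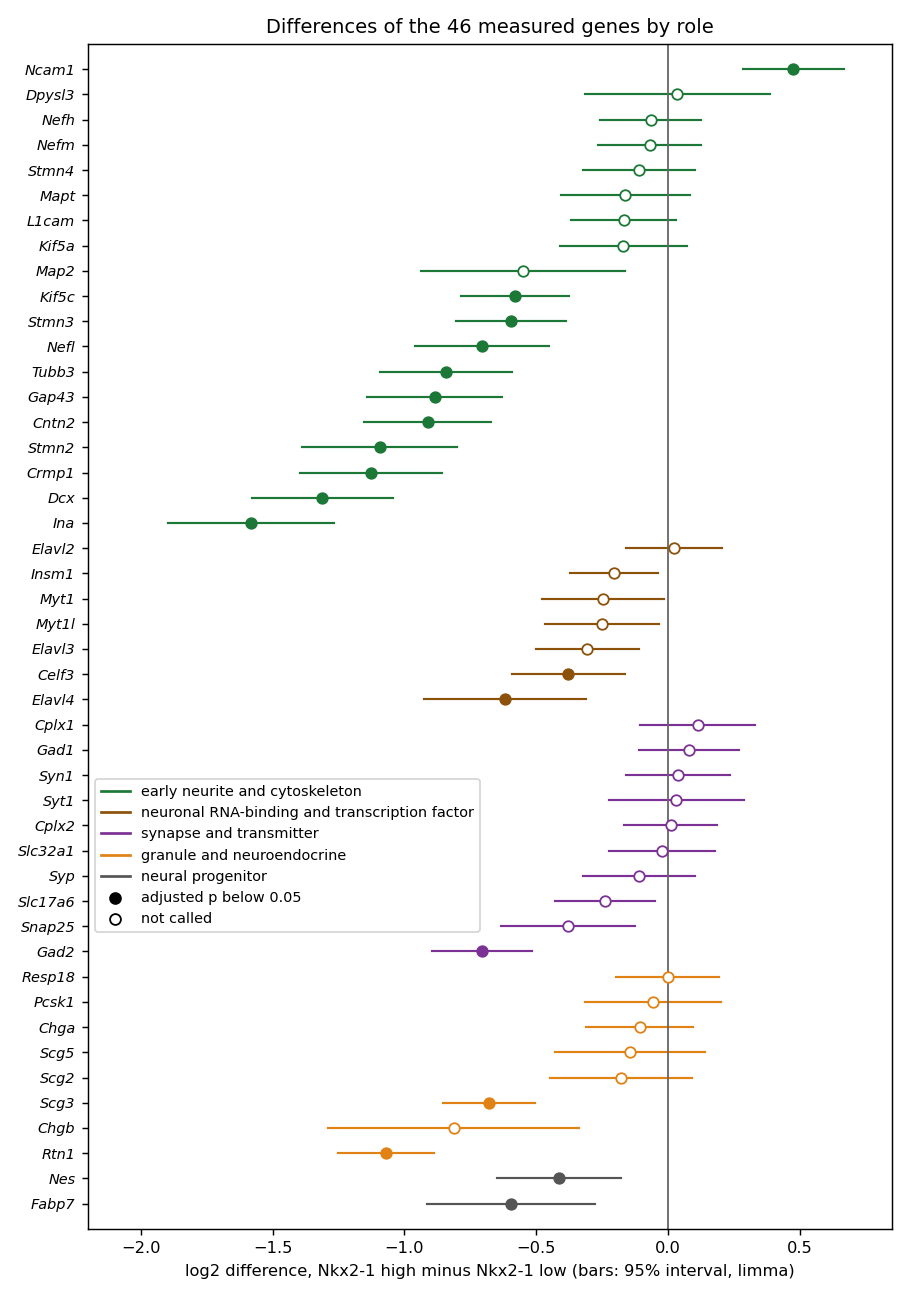
Log2 difference (Nkx2-1 high minus Nkx2-1 low, x axis) of the 46 measured genes, with 95% intervals from limma, coloured by role; filled points have an adjusted p below 0.05. Early neurite genes reach from 0.47 for Ncam1 down to -1.58 for Ina, while the synaptic genes run from 0.11 down to -0.71 for Gad2, the 1 that passed.

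The early neurite genes gave the largest differences, with a median of -0.58 over 19. Per sample, the median level of these 19 genes was 5.00, 5.12 and 5.09 in Nkx2-1 high and 5.56, 5.63 and 5.63 in Nkx2-1 low. The groups of this summary did not overlap, but its genes were chosen with these differences known, so this is a description only. Ina, which encodes the neuronal intermediate filament protein alpha-internexin, stood at 4.50, 4.74 and 5.08 in Nkx2-1 high and 6.24, 6.52 and 6.29 in Nkx2-1 low. It fell by 1.58 ± 0.14 on the log2 scale, 2.99-fold (limma adjusted p = 0.000227). A second row of Ina, not chosen because its mean was lower, differed by -1.45. Dcx, the gene of doublecortin, a microtubule-binding protein of migrating neurons, was at 4.05, 4.36 and 4.05 in Nkx2-1 high against 5.50, 5.63 and 5.27 in Nkx2-1 low. Only the Nkx2-1 low mean was above background, and Dcx was at least 2.24-fold lower in Nkx2-1 high (difference -1.31 ± 0.12, adjusted p = 0.000256).

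Crmp1, a collapsin response mediator gene that links guidance signals to the growth cone, was at 5.82, 6.10 and 5.96 in Nkx2-1 high and 7.28, 7.13 and 6.85 in Nkx2-1 low. It was 2.18-fold lower (-1.13 ± 0.12). Its relative Dpysl3 was at 9.49, 9.36 and 9.13 against 9.56, 9.38 and 8.93. Those groups overlapped, and the 95% interval of the difference ran from -0.31 to 0.38. Dpysl3 is also expressed in embryonic cells that are not neurons, and the part of such cells in its levels here was not tested. Gap43, a growth cone phosphoprotein gene, was at 5.82, 6.16 and 6.18 in Nkx2-1 high and 6.98, 7.05 and 6.79 in Nkx2-1 low (1.85-fold lower, -0.89 ± 0.11). Cntn2, which encodes an axonal adhesion protein of the contactin family, was at 5.28, 5.66 and 5.38 against 6.30, 6.45 and 6.29 (1.88-fold lower, -0.91 ± 0.11). Tubb3, the neuronal beta-tubulin gene, was at 5.23, 5.19 and 5.28 against 6.32, 6.01 and 5.89 (1.79-fold lower, -0.84 ± 0.11). For each of these 4 genes that fell, Crmp1, Gap43, Cntn2 and Tubb3, every Nkx2-1 high sample lay below every Nkx2-1 low sample. Over all genes, the groups did not overlap, in either direction, for 24.7%.

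The stathmin genes, whose proteins bind tubulin dimers, did not all pass. Stmn2 was at 3.70, 4.21 and 4.14 in Nkx2-1 high and 5.03, 5.07 and 5.22 in Nkx2-1 low, at least 1.75-fold lower (-1.09 ± 0.13, adjusted p = 0.00126). Stmn3 was at 4.82, 5.12 and 4.97 against 5.56, 5.50 and 5.63 (-0.60 ± 0.09, adjusted p = 0.00550). Its second row, not above background, differed by -0.13, and with both rows averaged Stmn3 did not pass (adjusted p = 0.102; over the 15 alternatives 0.00305 to 0.102). Stmn4 differed by -0.11 ± 0.09, with overlapping groups and an interval from -0.32 to 0.10.

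Of the neurofilament subunit genes, 1 of 3 fell. Nefl, the light subunit gene, was at 4.25, 3.94 and 4.38 in Nkx2-1 high and 4.93, 4.80 and 4.96 in Nkx2-1 low, at least 1.51-fold lower (-0.71 ± 0.11, adjusted p = 0.00622). Nefm, the medium subunit gene, was not above background, and Nefh, the heavy subunit gene, differed by -0.07 ± 0.09 (interval -0.26 to 0.13). Of the neuronal kinesin heavy chains, motors of axonal transport, Kif5c was at 5.53, 5.25 and 5.31 against 5.90, 5.94 and 5.98 and fell by 0.58 ± 0.09 (adjusted p = 0.00548). Kif5a differed by -0.17 ± 0.11 and overlapped. Whether related genes differ from one another in their response was not tested, and such relatives can share probe sequence.

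The dendritic microtubule gene Map2 was at 6.49, 6.74 and 7.28 in Nkx2-1 high and 7.46, 7.24 and 7.46 in Nkx2-1 low. The groups overlapped through Nkx2-1 high replicate 3, and Map2 did not pass (-0.55 ± 0.17, adjusted p = 0.109). It passed without that sample (-0.77, adjusted p = 0.00556), without both samples numbered 3 (-0.74, 0.0149) and with array weights (-0.60, 0.0313). Over all alternatives its adjusted p was 0.00556 to 0.283. Mapt, the tau gene, differed by -0.16 ± 0.11 and L1cam, an axonal adhesion gene, by -0.17 ± 0.09, neither past the test.

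Ncam1, the neural cell adhesion molecule gene, was the 1 gene of the 46 that rose. It stood at 7.47, 7.50 and 7.38 in Nkx2-1 high and 6.85, 7.07 and 7.01 in Nkx2-1 low, with no overlap (0.47 ± 0.09, 1.39-fold, adjusted p = 0.0109). The call was lost without Nkx2-1 high replicate 2 (difference 0.45, adjusted p = 0.0573; over all alternatives 0.00305 to 0.0573). Ncam1 is made by many embryonic cells besides neurons, and their part in this difference was not tested.

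**Figure D2:**
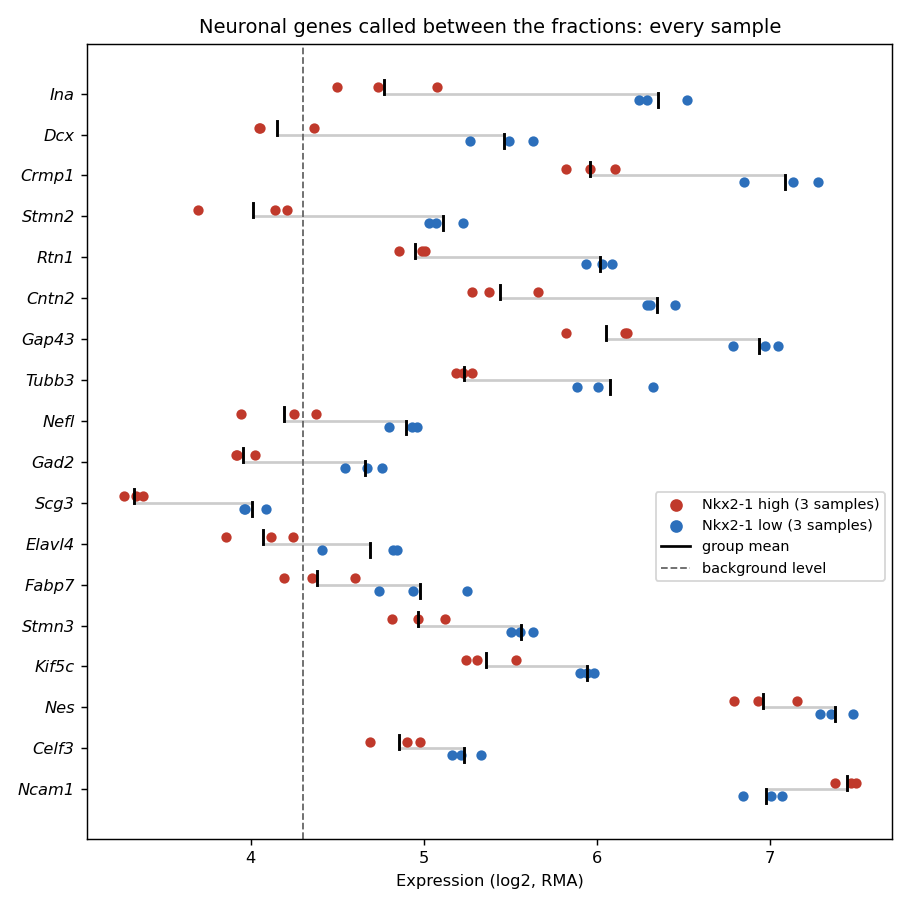
Log2 expression (x axis) of the 18 genes called between the fractions in each of the 6 samples, with group means as black ticks and the background level of 4.30 as a dashed line. Nkx2-1 high samples lie to the left of Nkx2-1 low samples for 17 genes and to the right for Ncam1.

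Upstream sequence is shown for genes that fell and that RefSeq gives a single start site, taking the 4 with the largest falls of the 9 such genes. These 250 bases before the start, from RefSeq on GRCm38.p6, were matched by symbol and are printed on the gene's strand. Capitals mark matches, on either strand, to the motifs TTCAGCACC and GGACAG (left and right parts of the RE1 element), CAGATG and CAGCTG (E-boxes of proneural factors) and CTCAAG (a core of NKX2-1 sites).
Ina, chr19:47014431-47014680, plus strand: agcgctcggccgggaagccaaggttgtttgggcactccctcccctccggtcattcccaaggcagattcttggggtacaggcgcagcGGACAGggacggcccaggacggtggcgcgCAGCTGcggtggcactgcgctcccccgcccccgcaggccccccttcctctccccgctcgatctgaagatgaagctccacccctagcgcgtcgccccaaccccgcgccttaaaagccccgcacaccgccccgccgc
Cntn2, chr1:132542941-132543190, minus strand: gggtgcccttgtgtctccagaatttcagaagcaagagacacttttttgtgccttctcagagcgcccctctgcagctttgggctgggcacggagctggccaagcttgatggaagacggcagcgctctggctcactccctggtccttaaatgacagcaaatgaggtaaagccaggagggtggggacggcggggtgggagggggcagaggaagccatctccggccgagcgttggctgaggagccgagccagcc
Tubb3, chr8:123411303-123411552, plus strand: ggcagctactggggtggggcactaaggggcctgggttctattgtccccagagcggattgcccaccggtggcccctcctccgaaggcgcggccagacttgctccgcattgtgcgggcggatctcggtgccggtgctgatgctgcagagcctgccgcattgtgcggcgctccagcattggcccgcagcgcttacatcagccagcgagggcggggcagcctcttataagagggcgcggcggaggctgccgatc
Gad2, chr2:22622077-22622326, plus strand: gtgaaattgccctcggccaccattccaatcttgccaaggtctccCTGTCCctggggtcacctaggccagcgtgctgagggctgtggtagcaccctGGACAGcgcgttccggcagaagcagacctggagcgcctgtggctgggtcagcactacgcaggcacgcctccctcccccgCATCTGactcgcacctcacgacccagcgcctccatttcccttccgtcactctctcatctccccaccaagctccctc
The Ina window holds GGACAG and CAGCTG, and the Gad2 window holds GGACAG on each strand and CAGATG on the minus strand. Neither Cntn2 nor Tubb3 has a match to these letters in this window. Only exact matches were sought, so sites with variant letters are missed. In Gad2 the plus-strand GGACAG closely follows agcacc, the end of the left part TTCAGCACC. The 4 windows are 61.2% to 70.8% G and C.

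Windows were found for 34 of the 46 genes, 61 in all, since several genes have more than 1 start site and their windows can overlap. GGACAG occurred in 19.7% of them and in 18.7% of all 32851 RefSeq windows of the same length, and CTCAAG in 14.8% and 13.3%. CAGATG occurred in 26.2% against 14.4% and CAGCTG, which reads the same on both strands, in 21.3% against 13.0%. TTCAGCACC was found in 1 of the 61, that of the synapsin gene Syn1, and in 0.301% of all windows. The median G and C content was 55.6% in the 61 windows and 52.4% in all. A match is a description of the letters and not of binding, and these shares were not tested.

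Regulators of young neurons showed small differences. Elavl4, a Hu-family RNA-binding protein gene, was at 3.86, 4.12 and 4.24 in Nkx2-1 high and 4.41, 4.84 and 4.82 in Nkx2-1 low, at least 1.31-fold lower (-0.62 ± 0.14, adjusted p = 0.0278). The call was lost without Nkx2-1 high replicate 1 or 2 or Nkx2-1 low replicate 2 or 3 (adjusted p up to 0.106). Celf3, a neuronal splicing factor gene, was at 4.69, 4.98 and 4.90 against 5.16, 5.22 and 5.33 (-0.38 ± 0.10, adjusted p = 0.0495). Its call was lost in each of the 6 fits that left out 1 sample, with adjusted p from 0.0691 to 0.148. The groups did not overlap for either gene, as for 25 of the 46 genes and 24.7% of all genes.

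The other 5 regulators did not pass. Elavl3, a second Hu-family gene, differed by -0.31 ± 0.09 (adjusted p = 0.0785) and passed with array weights (adjusted p = 0.0249), with cyclic loess (0.0493) and with only genes above background (0.0435), with 0.0249 to 0.238 over all alternatives. The third, Elavl2, was at 5.26, 5.37 and 5.46 in Nkx2-1 high and 5.34, 5.39 and 5.30 in Nkx2-1 low, with an interval from -0.16 to 0.20. Insm1, a zinc finger factor gene of neuronal and endocrine precursors, was at 4.93, 5.00 and 4.99 against 5.12, 5.21 and 5.20. Those groups did not overlap, but the difference of -0.21 ± 0.07 missed the threshold (adjusted p = 0.159). The neuronal zinc finger genes Myt1 and Myt1l differed by -0.25 ± 0.10 each.

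Among synaptic and transmitter genes the median difference was -0.01 over 10. Their median level per sample was 4.74, 4.73 and 4.90 in Nkx2-1 high and 4.76, 4.77 and 4.77 in Nkx2-1 low, so the groups overlapped. Gad2, which encodes a GABA-synthesising glutamate decarboxylase and whose upstream window is printed above, was the 1 gene that fell. It was at 4.03, 3.92 and 3.91 in Nkx2-1 high and 4.76, 4.67 and 4.54 in Nkx2-1 low, at least 1.28-fold lower (-0.71 ± 0.08, adjusted p = 0.00123). Gad1, the gene of the other decarboxylase, was at 5.48, 5.62 and 5.54 against 5.35, 5.55 and 5.50, and its interval ran from -0.11 to 0.27. GABA neurons use both enzymes.

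The vesicle genes among the 46 did not pass the test. The calcium sensor gene Syt1 was at 5.40, 5.48 and 5.51 in Nkx2-1 high and 5.17, 5.51 and 5.61 in Nkx2-1 low (interval -0.22 to 0.29). Syp, the gene of the vesicle membrane protein synaptophysin, was at 4.83, 4.98 and 5.09 against 5.01, 5.02 and 5.20 (interval -0.32 to 0.10). Differences were 0.04 ± 0.09 for Syn1, 0.11 ± 0.10 for Cplx1 and 0.01 ± 0.08 for Cplx2, the complexin genes of vesicle release. The vesicular GABA transporter gene Slc32a1 differed by -0.02 ± 0.09. Slc17a6, a vesicular glutamate transporter gene, was not above background, at 3.55, 3.48 and 3.67 against 3.89, 3.79 and 3.74, without overlap (-0.24 ± 0.08, adjusted p = 0.149).

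The membrane fusion gene Snap25 was at 4.03, 3.98 and 4.34 in Nkx2-1 high and 4.63, 4.36 and 4.49 in Nkx2-1 low. The groups did not overlap, and the difference of -0.38 ± 0.11 did not pass (adjusted p = 0.0917). Without Nkx2-1 high replicate 3 it did (adjusted p = 0.0260; over all alternatives 0.0260 to 0.279), and it passed with array weights too (0.0328).

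Of 8 granule and neuroendocrine genes, 4 were above background in neither group: Scg2, Scg3, Pcsk1 and Resp18. Rtn1, a reticulon gene of the endoplasmic reticulum in neurons and neuroendocrine cells, was at 4.99, 4.86 and 5.01 in Nkx2-1 high and 5.94, 6.09 and 6.03 in Nkx2-1 low. It was 2.10-fold lower (-1.07 ± 0.08), with the samples of each group close together. Scg3, a granin gene, passed the test at levels under background, with 3.34, 3.37 and 3.27 against 4.09, 3.96 and 3.96 (-0.68 ± 0.08), and is given no fold.

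Chgb, the chromogranin B gene, was at 6.05, 5.92 and 6.62 in Nkx2-1 high and 6.71, 6.88 and 7.45 in Nkx2-1 low. Within each group the sample numbered 3 was the highest, and the groups did not overlap. The difference of -0.81 ± 0.21 missed the threshold (adjusted p = 0.0561), but passed with median-centred arrays (0.0420) and without Nkx2-1 high replicate 3 (-1.02, adjusted p = 0.0185). Over all alternatives its adjusted p lay between 0.00117 and 0.194. Chga, the chromogranin A gene, differed by -0.11 ± 0.09 (interval -0.31 to 0.09). Scg5, which encodes the 7B2 chaperone of a prohormone convertase, was at 5.42, 5.62 and 5.62 against 5.41, 5.78 and 5.90 (-0.14 ± 0.13).

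Both progenitor genes fell by small amounts. Nes, the gene of the intermediate filament protein nestin, was at 7.16, 6.93 and 6.79 in Nkx2-1 high and 7.29, 7.48 and 7.35 in Nkx2-1 low (-0.41 ± 0.10, adjusted p = 0.0494). Of the 6 fits that left out a sample, the call held in 1, which dropped Nkx2-1 high replicate 1, and the highest adjusted p of the others was 0.169. It was lost with median-centred arrays too (0.0577). Fabp7, a fatty acid-binding protein gene of radial glia, was at 4.35, 4.19 and 4.60 against 4.74, 4.94 and 5.25 (-0.60 ± 0.14, adjusted p = 0.0387). Its call was lost without Nkx2-1 high replicate 1 or 2 or Nkx2-1 low replicate 2 or 3 (adjusted p up to 0.147). Nestin is also made by myoblasts and some mesenchyme.

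**Figure D3:**
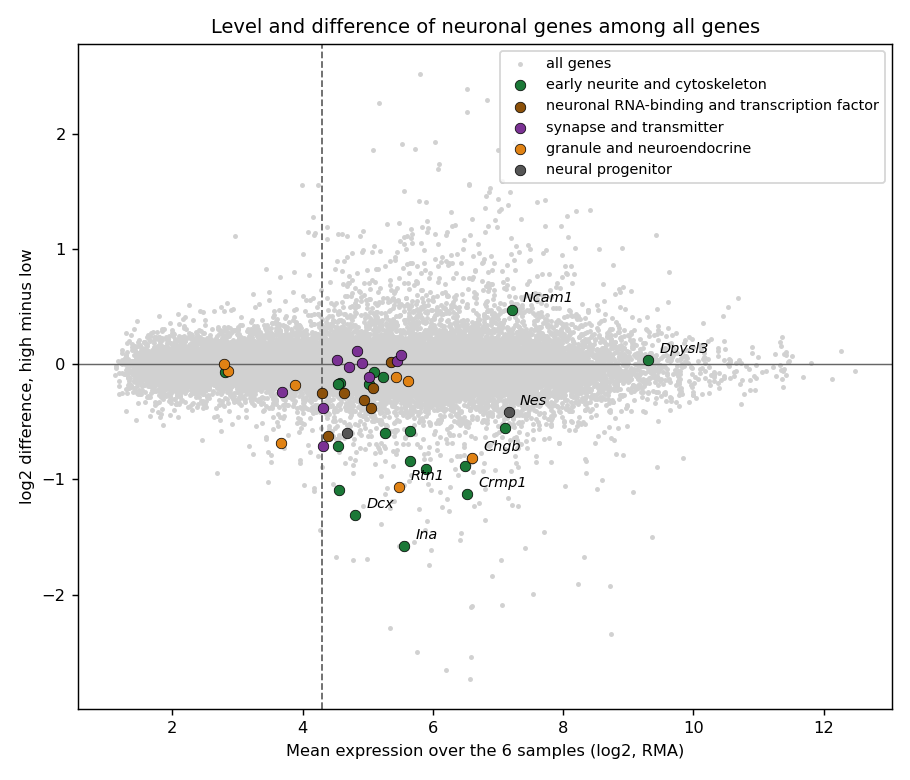
Log2 difference (y axis) against mean log2 expression over the 6 samples (x axis) for all genes in grey and the 46 genes coloured by role; the dashed line is the background level of 4.30. Ina, Dcx, Crmp1, Stmn2 and Rtn1 lie below -1.0, while most synaptic genes lie between the background level and 5.5 on the x axis.

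In lists of other neuronal genes written with earlier results known, some neurite and synapse genes fell and others rose. Before adjustment, 2082 of all 19938 genes were lower and 1708 higher with a limma p below 0.05. Unadjusted counts given below are to be read beside those numbers. Among 35 other neurite genes 4 fell and 1 rose (median -0.18), among them Dclk1, a doublecortin-like kinase gene (-0.82 ± 0.11), the tubulin gene Tubb2b (-0.69 ± 0.13, lost without Nkx2-1 high replicate 2, adjusted p = 0.0522) and Mllt11 (-0.45 ± 0.07). Of 35 measured other synapse genes 3 fell and 2 rose (median -0.10). The AMPA receptor subunit gene Gria1 was 3.35-fold lower (-1.75 ± 0.14), from 6.81 ± 0.05 (SD, n = 3) in the GFP-negative to 5.07 ± 0.31 (SD, n = 3) in the GFP-positive samples. Gria3, another subunit gene, rose by 0.49 ± 0.11 and lost the call when any sample but Nkx2-1 high replicate 3 was left out (adjusted p up to 0.132). Rab3c, a vesicle GTPase gene, passed at levels under background (-0.46 ± 0.09), a call lost without Nkx2-1 high replicate 1 or 2 or Nkx2-1 low replicate 2 (adjusted p up to 0.0680). Of 18 other granule genes 0 were called by limma, with 2 lower and 1 higher with p below 0.05 before adjustment. There Cpe, a peptide-processing enzyme gene, differed by -0.13 ± 0.13 and Pam, the amidating enzyme gene, by 0.06 ± 0.09.

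Regulators of neuronal expression were listed in the same way, and the called splicing genes rose. Of 28 measured neurogenic genes, transcription factors but for the Notch ligand genes Dll1 and Dll3, 1 rose and 2 fell (median -0.04). Isl1, a LIM-homeodomain factor gene that neurons and pharyngeal cells share, rose by 1.33 ± 0.15. Sox4 fell by 0.50 ± 0.09 (lost without Nkx2-1 high replicate 2 or Nkx2-1 low replicate 1, adjusted p up to 0.0613), and Neurod1 passed at levels under background (lost without Nkx2-1 high replicate 2 or Nkx2-1 low replicate 1 or 3, adjusted p up to 0.0707). Among 16 genes listed for neuronal splicing, Elavl1, Celf1 and Ptbp1 included, 3 rose and 0 fell (median -0.12). Before adjustment 3 were higher and 2 lower with a limma p below 0.05. The 3 that rose were Khdrbs3 (1.50 ± 0.11, 2.82-fold), Rbfox1 (0.76 ± 0.13) and Celf2 (0.64 ± 0.08), which muscle and other tissues also express. Of 12 measured genes of the REST repressor complex 0 were called by limma, with 2 lower and 1 higher with p below 0.05 before adjustment. Hdac2, a deacetylase gene, differed by -0.36 ± 0.10 (adjusted p = 0.0729), Ctdsp2, a phosphatase gene, by 0.12 ± 0.09, and Rest itself by 0.02 ± 0.08.

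**Figure D4:**
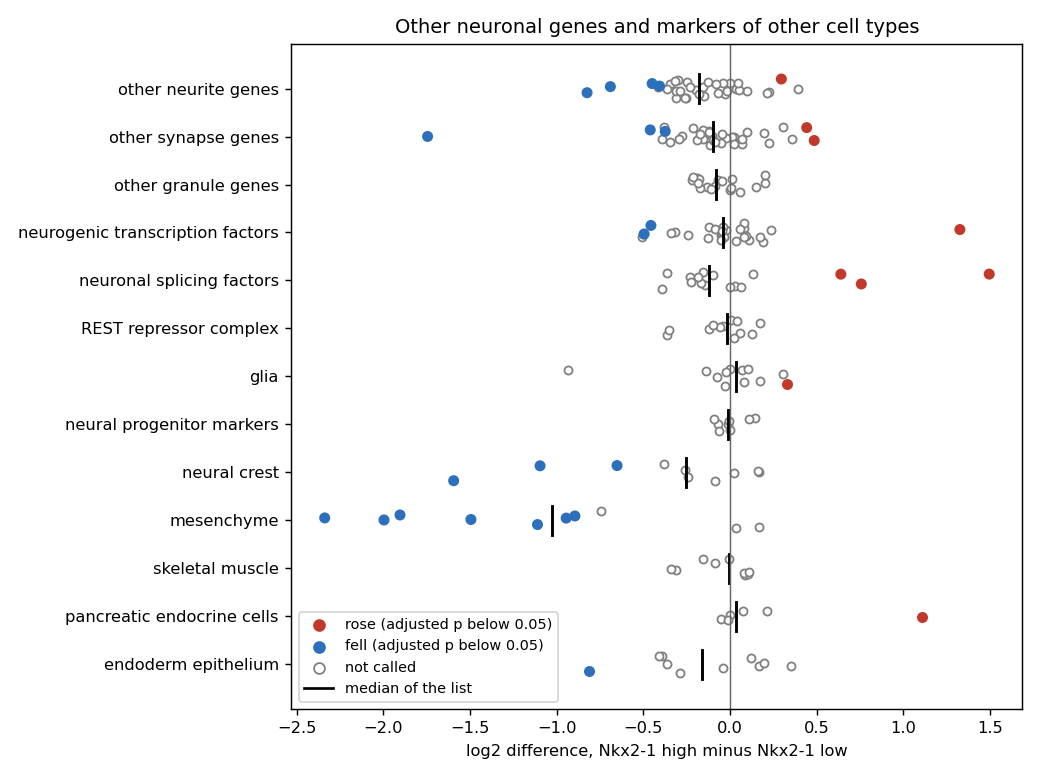
Log2 difference (x axis) of each measured gene, with list medians as black bars. The lists (y axis) are 6 of other neuronal genes and regulators of neuronal expression and 7 of cell type markers. Filled red and blue points rose and fell. Mesenchyme markers have the lowest median, -1.03, and neural progenitor markers centre on -0.01.

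Some markers of mesenchyme and neural crest fell as well. In mesenchyme 7 of 10 markers fell and 0 rose, with 8 lower and 0 higher with p below 0.05 before adjustment, and the log2 of their summed level ran from 11.33 to 11.76 in Nkx2-1 high and from 12.48 to 12.76 in Nkx2-1 low. Such a sum, here and below, adds unlogged levels of rows with different probes. The brightest rows weigh most in it, and it does not count cells. Postn (5.06-fold lower), Pdgfra (3.99-fold lower) and Prrx1 (3.74-fold lower) fell. Dcn (0.16 ± 0.14) and Pdgfrb (0.04 ± 0.16) were the 2 mesenchyme markers with a positive difference, and neither was called. Of 10 neural crest markers 3 fell and 0 rose, with 5 lower and 0 higher with p below 0.05 before adjustment, and the summed level was 9.24 to 9.42 against 9.80 to 10.01. These were Msx1 (-1.59 ± 0.11), Snai2 (-0.65 ± 0.15, lost when any sample but Nkx2-1 low replicate 3 was left out, adjusted p up to 0.122) and Tfap2b, which was at least 1.35-fold lower. The other 7 neural crest markers were not called. Of the 10, 7 differences were negative and 3 positive: Sox10 (0.16 ± 0.08), Foxd3 (0.03 ± 0.10) and Ets1 (0.17 ± 0.13). The part of these cells in the neuronal differences was not tested.

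The remaining lists had 0 or 1 call each. For 8 neural progenitor markers the summed level was 9.06 to 9.37 in Nkx2-1 high and 9.06 to 9.30 in Nkx2-1 low, and 0 were called by limma, nor did any pass an unadjusted p of 0.05. Msi1 differed by -0.09 ± 0.16 and Sox3 by 0.00 ± 0.08, and Pax6 was not above background. Among 12 measured glial markers 7 were above background, and Gfap, Aqp4, S100b, Mag and Mog were not. Their summed level was 8.02 to 8.43 against 8.28 to 8.53, and 1 rose, Cnp (0.33 ± 0.08), a call lost whichever sample was left out (highest adjusted p 0.125). Before adjustment 1 glial marker was lower and 2 were higher with p below 0.05. Slc1a3, an astrocyte glutamate transporter gene, had the list's lowest difference and overlapped between the groups (-0.94 ± 0.26, adjusted p = 0.0741). Of 6 measured pancreatic endocrine markers the somatostatin gene Sst rose (1.11 ± 0.16), which neurons also express. Gcg, Iapp and Pdx1 were not above background, and the summed level was 7.39 to 7.45 against 6.95 to 7.19. Of the other markers above background, Ppy and Ins2 differed by -0.01 ± 0.11 and -0.05 ± 0.08. The 9 skeletal muscle markers had 0 calls by limma, with 2 lower and 0 higher with p below 0.05 before adjustment. Their summed level was 7.78 to 7.86 against 7.89 to 7.95, with Actc1 at -0.31 ± 0.10 and Acta1 at 0.09 ± 0.11, and Des, Myf5, Myh3, Chrna1 and Tnnt1 were not above background. Of 10 endoderm markers Epcam fell (-0.81 ± 0.11) and the other 9 were not called, with 6 differences negative and 4 positive. Krt18 had the highest difference of that list (0.35 ± 0.12). Sox17 and Spink1 were not above background, and the summed level was 8.29 to 8.61 against 8.43 to 8.66. Before adjustment 4 endoderm markers were lower and 1 was higher with p below 0.05.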

How the data were processed

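RNA amplification (WT-Ovation Pico) and biotin labelling are given in the labels' protocols, and such amplification may not treat all transcripts alike. The authors deposited log2 values, with RMA named in the submitters' processing notes; its version and the genome build are not given here, and no source states the log base, which was taken as 2 from RMA and the range of 0.75 to 13.01. Scanner files, scan dates and detection calls were not used here. Of 29011 rows, 21789 had 1 symbol in the platform annotation, 1621 several and 5601 none, and only the first were used. The test was limma's moderated fit (version 3.58.1, R 4.3.3; lmFit, then eBayes) with all 6 samples and no covariate. Members, lists and roles were chosen with earlier results of these data known. Values per sample are given for called genes and for the 3 with the highest mean in each role. In other lists up to 3 called genes with the largest difference are named, or the 2 with the highest mean, and further genes were named after their values were seen. Data were simulated for Nkx2-1 high against low over 19938 genes, with normal noise independent between samples and 100 genes changed by each amount. There this fit recovered 40% of changes of 0.5 and 83% of changes of 1 on the log2 scale, with 3 false calls. The real comparison called 1196 genes, so these rates need not hold for it. Alternatives changed the array scaling (median centring, cyclic loess), the genes or rows fitted (above background, rows averaged, all rows), the model (robust eBayes with a trend, array weights, replicate block) and the samples (each left out, both numbered 3 left out), and used other background levels. The number of arrays limits the precision. Figures were drawn with matplotlib 3.10.9.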

Additional observations from a re-analysis of the deposited data

How the results depend on the processing

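No difference of a called gene among the 46 changed sign under any of the 15 alternatives to the fit. The count that fell was 15 to 21 with all samples kept and 13 to 18 with samples left out, and the count that rose was 1 with all samples kept and 0 to 1 with samples left out. The median difference of the 46 ran from -0.33 to -0.21 with samples left out, -0.33 without both samples numbered 3, and the number of genes called over all genes from 624 to 1086. With a background level at the 99th percentile of the receptor values, 19 of the 46 genes were above it, and 42 at the 90th percentile, against 40 at the 95th. Levels near background limit what the synaptic genes can show. Whether the replicate numbers pair the samples was not settled. Deviations from the group means correlated across genes at 0.18, -0.004 and 0.28 for samples numbered 1, 2 and 3. Between samples with different numbers the correlations ran from -0.27 to 0.15. With the number as a replicate block 17 of the 46 fell and 1 rose, 1470 genes were called in all, Chgb passed (adjusted p = 0.00117) and Nes did not (0.0501).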
